A study of Rattus norvegicus with 18 samples.

Results

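Primary rat hepatocytes, the parenchymal cells of the liver kept in short-term culture, were exposed for 6 h to acetaminophen (APAP, an analgesic and a known liver toxicant) at 3 mM in WEM culture medium with 0.1% DMSO, or to the medium with 0.1% DMSO alone. The comparison was chosen by the treatment labels. It held 7 of the 18 libraries of the series: 4 of APAP and 3 of the vehicle control, with no other group in the comparison. Per the labels' treatment protocol, the doses of the series were set to cause little cell death while lowering albumin output and raising cytochrome P450 activity. The labels give no strain, sex or age, and do not say whether the replicates came from separate animals or separate cultures, and the spread that the p-values rest on may be technical. The comparison addressed which transcripts an overt liver toxicant raised or lowered at a dose set to cause little cell death.

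Hepatocytes clear acetaminophen mostly by joining it to glucuronic acid or sulfate. A smaller part is oxidised by cytochromes P450 to a reactive quinone imine, which glutathione traps and which binds to proteins, mitochondrial ones among them, once glutathione runs low. Hepatocytes devote much of their RNA to secreted plasma proteins and to metabolic enzymes. The deposited tables list Ensembl transcript identifiers without gene names, and 0 of the 30897 identifiers could be matched to the gene table used here, so no gene, pathway or cell type marker could be located. The hepatocyte label could therefore not be checked against its markers. Transcripts are described by level, length and pattern, at most 2 identifiers are given for each direction, and no sequence is printed.

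The 7 libraries held 9280367 to 11479466 estimated counts each and listed 19151 to 19762 transcripts above 0. Replicates were alike: the correlation of log2 CPM (counts scaled to library size) across transcripts was 0.949 to 0.969 between libraries of one group and 0.873 to 0.894 between groups. The largest principal component held 60.1% of the variance, with the APAP libraries at -56.8 to -53.8 and the control libraries at 67.2 to 76.7. The SD of log2 CPM within a group had a median of 0.199 over the tested transcripts with APAP and 0.189 in control. In bulk RNA of this kind, fewer cells of a type and less RNA per cell cannot be told apart.

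APAP changed 7708 of the 15251 transcripts that passed the filter on low counts, which is 50.5% of them (edgeR, quasi-likelihood, adjusted p under 0.05 after Benjamini and Hochberg). The 3608 transcripts that rose were 23.7% of those tested, and the 4100 that fell were 26.9%. Changes in the 2 directions differed in size. Among called transcripts the median log2 fold change was 0.66 for those that rose (interquartile range 0.45 to 1.1) and -0.98 for those that fell (interquartile range -1.53 to -0.63). Counted by fitted fold, 1502 rose and 883 fell by under 1.5-fold, while 573 rose and 1445 fell by 2 to 4-fold. Over 8-fold the order was the other way: 272 rose and 177 fell. Smaller changes were thus mostly rises, changes of 2 to 8-fold were mostly falls, and the largest were mostly rises.

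A test against a minimum fold, which asks whether a change exceeds 1.5-fold and not merely 0, called 3050 transcripts, 20.0% of those tested (edgeR glmTreat, adjusted p under 0.05). Of these 1094 rose (7.17% of those tested) and 1956 fell (12.8%). In 8202 transcripts, 53.8% of those tested, the 4 APAP libraries did not overlap the 3 control libraries: 3825 lay above (25.1%) and 4377 below (28.7%). How the calls divided between rises and falls shifted with the scaling. Under TMM scaling, which takes most transcripts as unchanged, rises made up 46.8% of the calls and the median log2 fold change of all tested transcripts was -0.02. With scaling to total counts 22.7% of 8145 called transcripts were higher and the median was -0.34, and the test against 1.5-fold then called 629 higher and 3281 lower. Every fitted fold change and call below is therefore relative to the median transcript unless total counts are named. Shares of counts and TPM levels are relative to all transcripts of a library, and the scales can differ in direction.

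**Figure D1:**
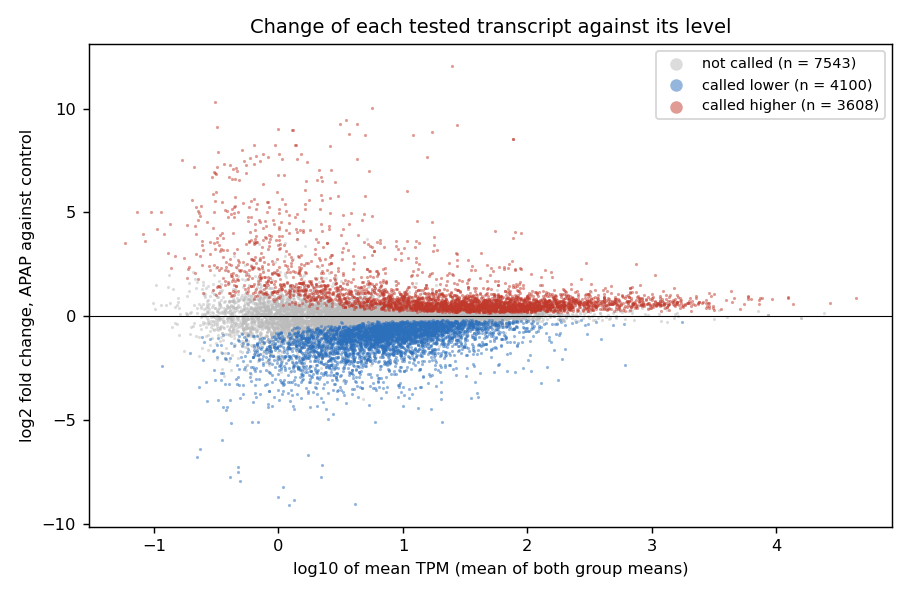
Each point is 1 of the 15251 tested transcripts, with the log10 of its mean TPM on the x axis and its log2 fold change, APAP against control, on the y axis. Red points were called higher (3608), blue points called lower (4100) and grey points were not called; at high levels most called points lie above 0 and at low levels most lie below it.

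The direction of change followed the level of the transcript. When tested transcripts were ranked by mean TPM (a level per length, with the same total in every library, here the mean of both group means), 83 of the 100 most abundant rose and 1 fell, and of the next 900, 696 rose and 38 fell. Under TMM scaling called transcripts were thus more frequent in these classes than the 50.5% over all transcripts: 84% of the 100 most abundant and 81.6% of the next 900. With scaling to total counts these shares were 72% and 63%, beside 53.4% over all transcripts and 60% at ranks 5001 to 10000. The excess thus depended on the scaling. At ranks 5001 to 10000, with mean levels of 4.2 to 16.9 TPM, 656 rose and 1910 fell. Below rank 10000, 745 rose and 1319 fell. The median log2 fold change was 0.62, 0.53, 0.14, -0.21 and -0.19 in the 5 classes from the most to the least abundant, beside -0.02 for all tested transcripts. With scaling to total counts these medians were 0.3, 0.21, -0.18, -0.53 and -0.51, so the order of the upper 4 classes was kept while the middle class (ranks 1001 to 5000) changed sign: there rises made up 63.2% of the calls under TMM scaling and 24.7% under total counts. Changes in abundant transcripts were moderate in size. Among the 1000 most abundant, 779 rose and 39 fell, and 10.1% of these changed by over 2-fold, against 78.6% of those called below rank 10000, where small changes are harder to detect at this depth.

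Length moved with direction as well. Of called transcripts up to 500 bases 88.3% rose, of those of 1001 to 2000 bases 57.8%, and of those over 4000 bases 26.8%. With scaling to total counts these shares were 68.6%, 30% and 11.8%. Tested short transcripts had higher levels: the median was 48.6 TPM for transcripts up to 500 bases and 4.28 TPM for those over 4000 bases. A filter on counts asks for a higher TPM of short transcripts. The lowest tested level was 2.04 TPM up to 500 bases and 0.0588 TPM over 4000 bases. The classes were therefore crossed. Among transcripts of 1001 to 2000 bases, the median log2 fold change was 0.60 for the 100 most abundant (30 transcripts), 0.50 at ranks 101 to 1000, 0.20 at ranks 1001 to 5000 and -0.09 at ranks 5001 to 10000. Among those of 2001 to 4000 bases it ran from 0.70 (5 transcripts) through 0.38 and 0.03 to -0.31. At ranks 5001 to 10000, in turn, it went from 0.30 up to 500 bases to -0.35 over 4000 bases. The fall with length was not seen in the 100 most abundant, where the medians were 0.64, 0.61, 0.60 and 0.70 from the shortest to the longest class present. Nor did the fall with level go on below rank 10000, where the median was 0.03 for 1001 to 2000 bases and -0.26 for 2001 to 4000 bases. Removing each library's trend with length took the medians at ranks 5001 to 10000 to between -0.10 and -0.03 in all 5 length classes. It did not level the more abundant classes, where medians were then higher in the longest class present than in the shortest. They went from 0.32 to 0.84 in the 100 most abundant and from 0.28 to 0.7 at ranks 101 to 1000. At ranks 1001 to 5000 they went from 0.01 to 0.22. Of the 7598 transcripts called after this removal, 55.1% were higher. With the length trend removed, 74 of the 100 most abundant rose and 1 fell, and at ranks 5001 to 10000, 942 rose and 1579 fell. The medians of the 5 level classes were then 0.36, 0.39, 0.18, -0.08 and -0.01, so the 2 upper classes changed places. Whether the length trend reflects the cells or the RNA and libraries was not tested.

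**Figure D2:**
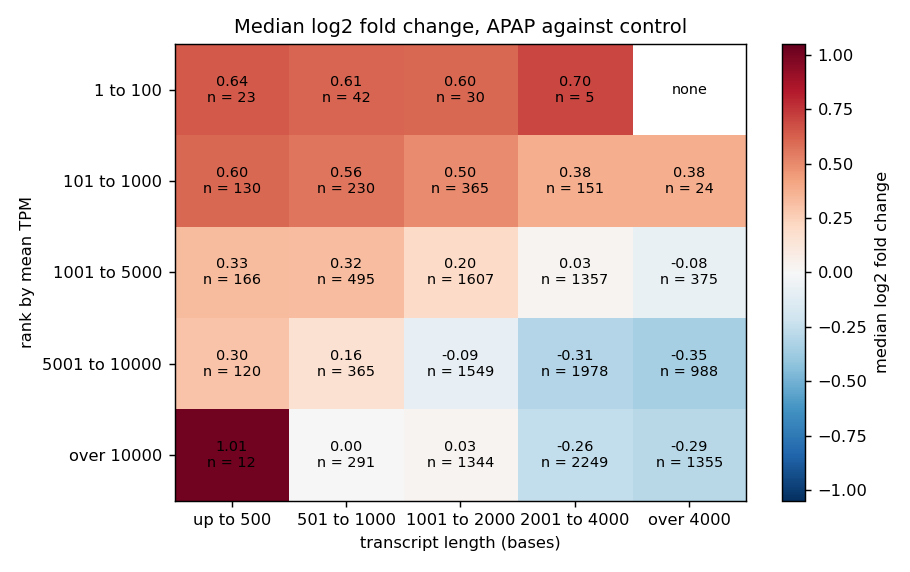
Median log2 fold change, APAP against control, of tested transcripts grouped by rank of mean TPM (rows) and length in bases (columns), with the number of transcripts in each cell and colour from blue (lower) to red (higher). Medians are highest in the top rows, from 0.38 to 0.70 within the 1000 most abundant, and lowest for transcripts over 2000 bases below rank 5000, from -0.35 to -0.26; the cell at 1.01 holds 12 transcripts.

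The most abundant transcripts held a larger share of the counts in the APAP libraries. The 10 most abundant transcripts of each library held 15.7%, 15.4% and 16.2% of counts in control replicates 1 to 3 and 19.8%, 19.6%, 20.6% and 20.7% in APAP replicates 1 to 4. The groups did not overlap, and the difference of 4.41 percentage points was larger than the SD of either group (0.4 in control, 0.581 with APAP). The 100 most abundant held 33.7% ± 0.988 (SD, n = 3) of control counts and 40.3% ± 1.5 (SD, n = 4) of APAP counts. Transcripts at 1 TPM or more numbered 14362, 14668 and 14107 in control and 13422, 13982, 13489 and 12869 with APAP, again with no overlap. The mean difference of -938 was -412 at a limit of 1 CPM, and transcripts listed above 0 numbered 19321, 19294 and 19151 in control and 19615, 19762, 19673 and 19249 with APAP, so by that count the groups overlapped and most APAP libraries were higher. The share of counts in transcripts over 2000 bases was 50.2%, 51.9% and 47.3% in control and 45.7%, 46.8%, 44.6% and 42.7% with APAP. The shares of the 10 and the 100 most abundant, the number at 1 TPM and the share over 2000 bases each gave p = 0.057 in an exact two-sided permutation test over libraries, the smallest that 3 against 4 libraries allow, and 0.057 after Benjamini-Hochberg adjustment over these 4 measures. The sizes depended on the scale. In TPM the difference for the 10 most abundant was 1.24 percentage points against 4.41 in counts, for the 100 most abundant 3.13 against 6.52, and for transcripts over 2000 bases -2.15 against -4.85.

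The 10 most abundant transcripts of control, by mean TPM, split into a part that rose in all APAP libraries and a part that varied among replicates. The most abundant, of 2069 bases, stood at 35792, 38854 and 36453 TPM in control and at 52947, 52996, 48846 and 45474 TPM with APAP. Each APAP library lay above each control library, and the scaled count rose by 0.87 ± 0.07 on the log2 scale (SE; adjusted p = 2.05e-05, edgeR). Ranks 7 and 8, of 1184 and 701 bases, behaved alike, from 10154 to 11018 TPM in control to 13853 to 14534 TPM with APAP and from 9914 to 10834 TPM to 13480 to 15227 TPM. Their log2 fold changes were 0.89 ± 0.10 and 0.91 ± 0.09 (SE; edgeR adjusted p = 0.000111 and 5.51e-05). Rank 6, of 1545 bases, rose by less: 12377 to 13199 TPM became 13467 to 15969 TPM, or 0.61 ± 0.08 on the log2 scale (SE; adjusted p = 0.000409, edgeR). TPM ratios are smaller than the fold changes (1.35 against a fitted 1.83-fold at rank 1). TPM is divided by length and relative to all transcripts of a library, while the fit scales counts with TMM factors. With scaling to total counts the log2 fold change at rank 1 was 0.55.

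The transcripts at ranks 2 and 3, of 1140 and 798 bases, did not separate by level. Rank 2 stood at 28191, 28137 and 24267 TPM in control and at 15766, 19464, 26304 and 25229 TPM with APAP, and it was not called (log2 fold change 0.15 ± 0.21, SE; edgeR adjusted p = 0.595). APAP replicates 1 and 2 were low and replicates 3 and 4 lay among the controls. Rank 3 stood at 21981 to 28563 TPM in control and 23861 to 33871 TPM with APAP. It was called by the main test (log2 fold change 0.61 ± 0.14, SE; edgeR adjusted p = 0.00674) but the call was lost in 3 alternatives (edgeR). With scaling to total counts the log2 fold change was 0.29 (adjusted p = 0.113) and with the length trend removed 0.37 (adjusted p = 0.0557). With all 18 libraries in the fit it stayed at 0.6 (adjusted p = 0.312).

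Ranks 4, 5, 9 and 10 belonged to 2 sets of transcripts whose estimated counts were identical in every library, 2 of 666 bases and 5 of 411 bases. Equal values can arise when reads match several transcripts alike and are shared evenly, so only the sum of a set carries information. The sets were singled out after their values were seen, as those whose summed level reached 1% of TPM in a library. The 7 transcripts together held 9.46%, 6.52% and 9.87% of TPM in control and 3.86%, 1.64%, 8.34% and 10.8% with APAP. The APAP libraries spanned 6.57-fold and enclosed the control range, with replicates 1 and 2 low and replicates 3 and 4 high, as for the transcript at rank 2. Neither set was called (log2 fold changes 0.04 ± 0.63 and -0.08 ± 0.65, SE; edgeR adjusted p = 0.96 and 0.927), and the sum gave p = 0.4 (exact two-sided permutation test). With such a spread, neither a rise nor a fall of these transcripts could be shown at n = 4 against 3.

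**Figure D3:**
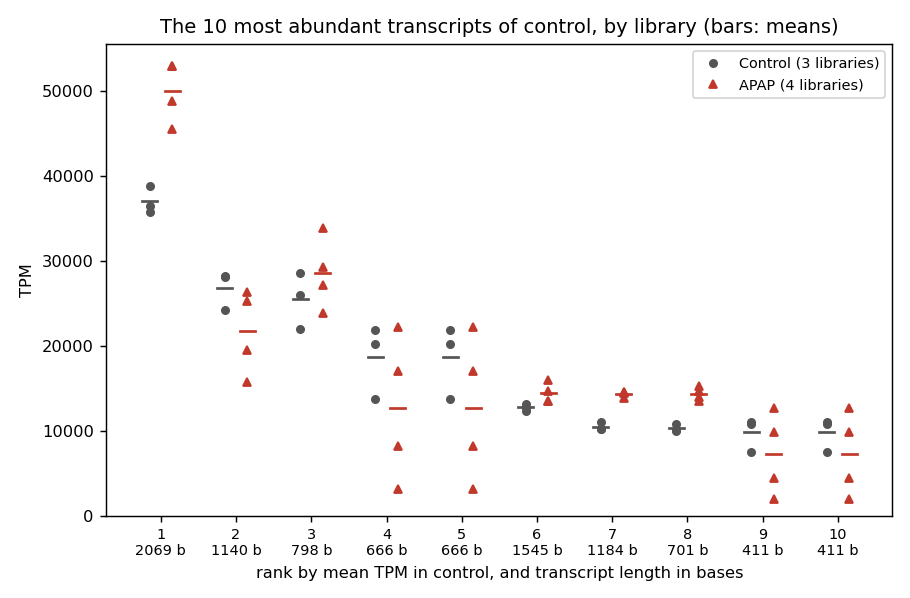
TPM of the 10 most abundant transcripts of control in each control library (grey circles, n = 3) and each APAP library (red triangles, n = 4), with bars at the group means; the x axis gives rank and length in bases. Ranks 1, 6, 7 and 8 lie higher in every APAP library, while ranks 4, 5, 9 and 10, which belong to sets of identical values, span from 3172 to 22156 TPM and from 2008 to 12659 TPM among the APAP libraries.

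These sets also shaped how far libraries lay from each other in makeup. The distance between 2 libraries was taken as the share of TPM that sits on different transcripts. It was 5.04% to 8.19% within control, 4.55% to 11.8% within APAP and 10.6% to 18% between the groups, so the most distant APAP pair (replicates 2 and 4) lay further apart than the closest pair across groups (APAP replicate 4 and control replicate 3). Of the distance between APAP replicates 2 and 4, 38.6% came from the 7 transcripts of copied values. Without them the ranges were 3.71% to 7.23% within control, 3.64% to 5.69% within APAP and 11.4% to 15.1% between groups, with no overlap of within-group and between-group pairs. The 100 most abundant transcripts of the group means shared 90 members between control and APAP, and the 1000 most abundant shared 894.

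**Figure D4:**
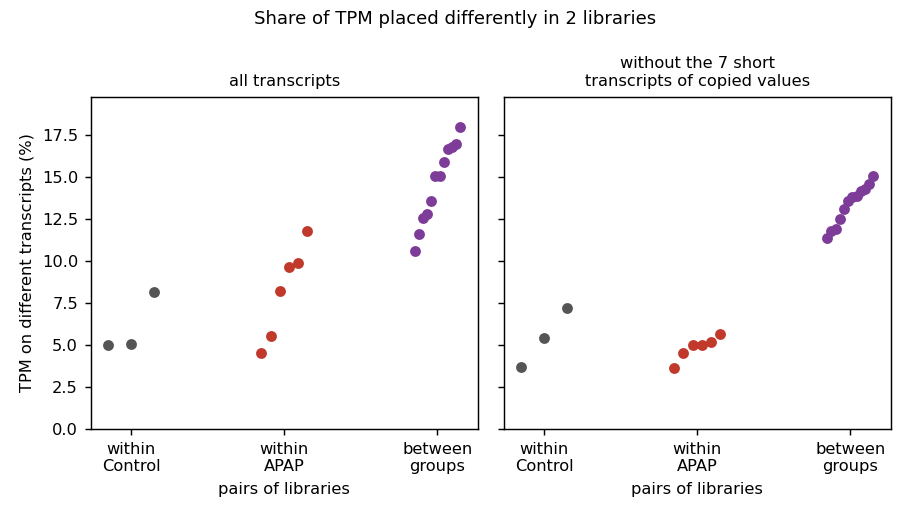
Each point is a pair of libraries and the y axis is the percentage of TPM that sits on different transcripts in them, for pairs within Control (3), within APAP (6) and between groups (12). The left panel uses all transcripts, where within-APAP pairs reach 11.8% and overlap the between-group pairs; the right panel leaves out the 7 short transcripts of copied values, where between-group pairs start at 11.4% and within-group pairs end at 7.23%.

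The largest changes in either direction were in transcripts at or near 0 in one group. They were chosen by a fixed rule: called, a mean of at least 5 CPM in a group, no overlap between groups, and the largest log2 fold change. Since the rule used these same values, the folds and p-values of the transcripts it picked only describe them. They are no separate support, and a transcript could reach 5 CPM through the group where it was high. The pool held 6308 transcripts, 2919 higher and 3389 lower. Overlap was judged on the estimates as deposited. With estimates under 0.01 taken as 0, as elsewhere here, 6306 of them did not overlap. ENSRNOT00000028780.4, of 1249 bases, had 0 counts in the 3 control libraries and 46.2, 64.4, 51.6 and 37.9 CPM in APAP replicates 1 to 4. Set against 3 counts in each control library, the limit that 0 counts allow for counting error alone, it was at least 206-fold higher (edgeR adjusted p = 1.1e-05). ENSRNOT00000087926.1, of 25658 bases, had 0 counts in control and 11.0, 21.3, 13.1 and 14.2 CPM with APAP, at least 61.4-fold higher (edgeR adjusted p = 2.59e-05). Its level per length was low, 0.614 TPM with APAP. Neither had whole-number counts, so reads may be shared with similar transcripts.

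In the other direction, ENSRNOT00000034097.7, of 3915 bases, had 4.77, 7.23 and 7.21 CPM in control and 0 counts in APAP replicates 1 to 4. It was at least 20-fold lower by the same limit (adjusted p = 8.16e-05, edgeR). ENSRNOT00000005325.7, of 1236 bases, had 4.03, 5.65 and 9.15 CPM in control and an estimated count under 0.01 in each APAP library, at least 19.6-fold lower (adjusted p = 0.000205, edgeR). Control levels of these 2 were close to the minimum of 5 CPM, and they too had shared counts. Of the 10 largest rises, the one with the highest level, a transcript of 2181 bases with whole-number counts, went from 0.0848 to 0.23 CPM in control to 75.1 to 128 CPM with APAP. Of the 10 largest falls, the one with the highest level, of 3029 bases and also with whole-number counts, went from 47.5 to 55 CPM to 1.31 to 3.98 CPM. Several of the 10 rises varied among APAP replicates: the fourth, of 1380 bases, was at 9.46 to 13.2 CPM in replicates 1, 3 and 4 and at an estimated count under 0.01 in replicate 2, as in the 3 control libraries, so it is 1 of the 2 that overlap once such counts are taken as 0 (edgeR adjusted p = 0.0303; 0.0665 against 1.5-fold). The fifth, of 1431 bases, had 0.215 CPM in replicate 4 and 7.5 to 12.2 CPM in the others.

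**Figure D5:**
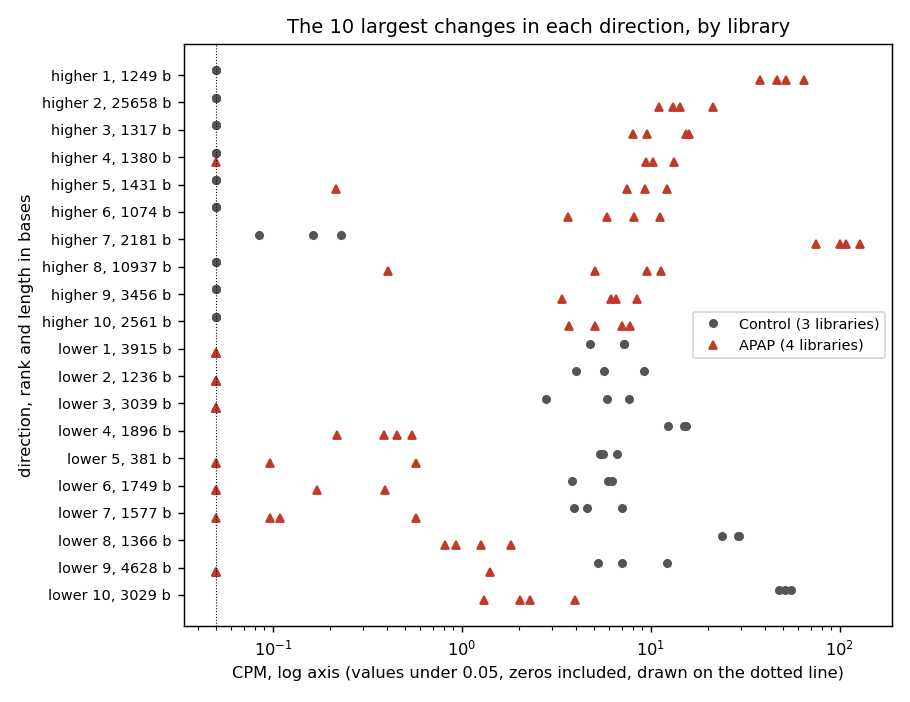
CPM on a log axis of the 10 called transcripts with the largest rise and the 10 with the largest fall, each labelled by direction, rank and length in bases, in each control library (grey circles, n = 3) and APAP library (red triangles, n = 4). Values under 0.05 CPM are drawn on the dotted line; control circles of most rises and APAP triangles of the 3 largest falls lie there, and the rises ranked 4, 5 and 8 have 1 APAP library far below the others.

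Of 1297 tested transcripts that reached a mean of 100 TPM in a group, 933 rose (71.9%, against 23.7% of all tested) and 93 fell (7.17%, against 26.9%), while 271 were not called. By over 2-fold 108 rose and 29 fell. With scaling to total counts 589 rose and 239 fell. A transcript could reach this level through the group where it was high, so the counts describe the set and support nothing further. The examples given here were chosen after their values were seen, as the largest changes, and the rises among them were rare in control. Of these abundant transcripts, 2 of 411 bases with identical values had the largest rise, from 0.354, 0.961 and 0 TPM in control to 153, 170, 159 and 131 TPM with APAP, which moved them from ranks 14642 and 14643 to ranks 771 and 772 by level (log2 fold change 8.53 ± 0.28, SE; edgeR adjusted p = 2.79e-07). The size rests on control levels near 0: it was 9.35 without control replicate 2 and 8.03 without control replicate 3. Their length is that of the variable set of 5 above, and whether their reads are shared with that set was not tested. A transcript of 903 bases with whole-number counts rose from 12.1, 15.1 and 13.7 TPM to 157, 227, 167 and 106 TPM, or 4 ± 0.22 on the log2 scale (SE; adjusted p = 5.16e-06, edgeR). All 4 APAP values lay far above the control values.

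The largest fall at this level was in a transcript of 1855 bases with whole-number counts, from 239, 260 and 222 TPM in control to 17.6, 21.8, 18.5 and 17.5 TPM with APAP. Its rank went from 497 to 4110, and the fall of 9.42-fold was tight among replicates (log2 fold change -3.24 ± 0.07, SE; edgeR adjusted p = 5.35e-08). The next, of 2029 bases, fell from 324, 360 and 290 TPM to 24.7, 33.7, 28.2 and 25.5 TPM (log2 fold change -3.1 ± 0.09, SE; edgeR adjusted p = 1.67e-07).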

How the data were processed

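RNA of 7 libraries was analysed. TRIzol-extracted total RNA, treated to remove DNA, was sequenced from Illumina libraries, per the labels' protocols. The submitters' processing notes name kallisto 0.43. Which annotation and build were used was not given in the sources used here, and nor was the read layout. Deposited tables list estimated counts, which need not be whole, and TPM, scaled per effective length to a fixed total, as the authors made them, with lengths in bases. Estimated counts were rounded, filtered with filterByExpr (15251 of 30897 transcripts, holding 99.81% to 99.85% of counts) and tested in edgeR 4.0.16 (R 4.3.3) with TMM factors, robust quasi-likelihood and group as the factor, and against 1.5-fold with glmTreat. CPM uses TMM-scaled totals. Estimated counts under 0.01 were taken as 0, and folds against such groups used 3 counts in each library.

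Of tested transcripts 6429 had whole-number counts in the 7 libraries (tolerance 0.000001), and 108, in 52 sets, had values identical to another transcript. Counts of replicates differed by more than sampling noise, so none was treated as a repeat deposit of another; this does not show that they are separate cultures. In simulated counts of 15051 transcripts, 81, 57 and 62 were changed by 1.5, 2 and 4-fold in random directions. The test recovered 39.5%, 75.4% and 96.8% of these, with 8 false calls. The spread was modelled on the control libraries, low-count transcripts were not changed, and far fewer changed than were called in the data. The error rate of the 7708 calls can therefore not be read from it. Groups came from the treatment labels. Transcripts were named by the rule given with the largest changes (2 per direction, since no names could be given) and as the 10 most abundant of control. Gene and marker lists could not be applied, and no list result is given. The members and lists were chosen with earlier results of these data known. Alternatives were other scalings, filters, tools (DESeq2 1.42.0, limma 3.58.1), length corrections, blocks, thresholds and libraries. Deviations of libraries with the same replicate number in the title correlated at 0.011, 0.14 and -0.0028. The table names number control 1, 2 and 4, which gives 0.011, 0.14 and 0.17. All other pairs of an APAP and a control library lay between -0.19 and 0.076, so 0.14 and 0.17 were the highest. The labels state no pairing, so the main fit held no replicate block. Whether shared numbers mark a shared culture or batch was not tested, and fits with blocks are given below.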

Additional observations from a re-analysis of the deposited data

Results flagged for a closer look

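In 25 sets of values of the 4 APAP libraries, the gap between 1 library and the others was set against the group's range. In this check 2 sets stood out. Chance gives about 5%, so 2 of 25 is near what chance gives, and the 2 sets are only listed here. Both were among the transcripts of at least 100 TPM with the largest changes, and in both APAP replicate 2 was high. A transcript of 411 bases stood at 127 TPM in replicate 2 and 90.1 to 96.2 TPM in the other APAP libraries, against 7.45 to 8.18 TPM in control. A transcript of 2307 bases stood at 20.6 TPM in replicate 2 and 14.9 to 15.6 TPM in the others, against 135 to 153 TPM in control. Both lay far from control in every APAP library. Control groups of 3 were not checked in this way.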

How the results depend on the processing

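The count of 7708 changed transcripts kept within 1.5-fold in the alternatives run, from 5529 (adjusted p under 0.01) to 9286 (limma voom), with DESeq2 at 7603. Without 1 library each it ranged from 6279 to 7705, and the count past 1.5-fold from 2491 to 3195. Asked for 2-fold in place of 1.5-fold, the test called 1390. A replicate block from the titles gave 7149, 6820 of them shared with the 7708. A replicate block from the numbers in the table names gave 7933, 7164 of them shared. Scaling to total counts shared 5948 of its 8145 calls with the 7708, and removal of the length trend 6470 of 7598. With all 18 libraries in the fit 42.7% of 7556 were higher. Sums per gene were not run, since no table pairs transcripts with genes.

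The difference in the share of the 10 most abundant was 4.23 to 4.63 points without 1 library each and 1.24 in TPM; for the 100 most abundant it was 5.96 to 7.09 and 3.13. The difference in transcripts at 1 TPM was -1119 to -748 without 1 library each, -1847 at 5 TPM and -412 at 1 CPM. The share in transcripts over 2000 bases differed by -6.1 to -3.8 points without 1 library each and by -2.15 in TPM. Each of these kept its direction; the cause of the differences in size was not tested.

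The transcripts named by identifier passed in each of 19 alternatives (largest adjusted p 0.00489, ENSRNOT00000087926.1 with all 18 libraries, edgeR). They were picked as the largest called changes, at or near 0 in a group. Refits that hold the same libraries could hardly fail for them, so this is no separate support. Uncalled abundant transcripts changed sign. Rank 2 of control stood at a log2 fold change of -0.18 with total counts, -0.03 and -0.01 with the blocks by title and by table name, and between -0.02 and 0.29 without 1 library each (lowest without APAP replicate 4). Rank 4 stood at 0.1, 0.24 and 0.11 without APAP replicate 1, APAP replicate 2 and control replicate 3, and between -0.59 and 0.24 over all 7 such fits. With the blocks by title and by table name it kept its sign, at -0.87 and -0.71. Rank 9 stood at -0.3 with total counts, -0.28 with limma voom, -0.29 with the length trend removed, -0.73 and -0.58 with the blocks, and between -0.46 and 0.36 without 1 library each, with -0.13 and -0.15 without APAP replicate 3 and control replicate 2. None of these passed (edgeR or limma voom adjusted p 0.15 or more).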

Other observations

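Counting the named transcripts where they meet the pattern, 97 had 0 counts in every control library and 3 or more in every APAP library, and 40 had the reverse pattern. Of these, 40 and 13 passed the low-count filter, and all were called (edgeR adjusted p under 0.05), which is no separate result because both sets were picked by these same counts. Most were rare: the median level in the group that had them was 0.975 CPM (highest 50) for the 97 and 0.861 CPM (highest 6.4) for the 40. Whole-number counts were seen for 62 of the 97 and 9 of the 40. The 2 patterns ask for 3 counts in 4 and in 3 libraries, so their numbers cannot be set against each other.

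Transcripts with whole-number counts in the 7 libraries were called more often (59.8% of 6429) than those with shared counts (43.8% of 8822), and their median level was higher (11.6 and 6.39 TPM). The split by direction was alike: 45.2% and 48.4% of called transcripts were higher, and 39.3% and 39.5% of called transcripts changed by over 2-fold.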
